A study of Mus musculus with 135 samples.

Results

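The genes described here take up, carry and break down heme and cell-free hemoglobin: Hmox1, Hmox2, Blvra, Blvrb, Hp, Hpx, Cd163 and Lrp1. They were chosen by symbol and not by a cut on a measured value, though with earlier results of these data known. They make up 8 of the 55416 genes in each of the study's 2 count tables, one for cerebral cortex and one for hippocampus. Each symbol occurred once in both tables. The libraries were bulk polyA RNA-seq of adult male Townes mice, a strain whose own globin genes have been replaced by human ones. SS mice carry the sickle form and AA mice, the humanized controls, the normal form. Mice were left unperturbed, were exposed to repeat social defeat (RSD, an aggressive male intruder placed in the home cage on consecutive days), were given minocycline (a tetracycline antibiotic) in the drinking water, or received minocycline before and during RSD. The AA and SS groups named without a suffix had neither RSD nor drug, and both genotypes carry the human globin genes.

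In cortex the groups held 12 AA, 3 AA+RSD, 18 AA+RSD+minocycline, 1 AA+minocycline, 8 SS, 6 SS+RSD, 14 SS+RSD+minocycline and 4 SS+minocycline libraries. Hippocampus had 11 AA and 7 SS libraries and the same numbers in the other groups. Each library was 1 mouse, so the spread described below is between animals. Depth, counted as reads on genes, was between 16295042 and 107713193 in cortex and between 12869149 and 68731008 in hippocampus. Levels are given as CPM, the reads of a gene scaled to a common total of reads on genes. In each tissue the library labelled SS+minocycline mouse 9887 and the one labelled AA+RSD+minocycline mouse 9877 held identical counts, and both were left out.

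A few other libraries stood apart from their labels. The summed level of 9 red cell precursor genes (Alas2, which starts heme synthesis in red cells, and others) was 63.5 to 149 CPM in cortex of SS mice and had a median of 4.91 CPM in AA mice. AA mouse 5844 was at 114 CPM, AA+RSD+minocycline mouse 5853 at 61.1 CPM and SS+RSD+minocycline mouse 7078 at 7.46 CPM. AA mouse 9631 held 1944 cortex reads of the mouse globin gene Hbb-bs, which the humanized strain lacks. In AA+RSD mouse 9674 the markers of the tissues were exchanged: 5 cortex genes summed to 225 CPM in its cortex library and 761 CPM in its hippocampus library, against 648 to 786 CPM in cortex and 226 to 279 CPM in hippocampus of AA mice. These mice were kept under their labels, and calls that change without them are given both ways.

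Mouse numbers fell into 3 runs, here called A, B and C, and the labels do not say what separates them. All 3 AA+RSD and all 6 SS+RSD mice were in A, and all mice with both RSD and minocycline were in B or C. Untreated mice were split, with 4 AA and 2 SS mice of A and 8 AA and 6 SS mice of B in cortex. RSD with against without minocycline therefore cannot be told apart from the number series by the groups alone. The share of reads lying outside genes also went with the series, with cortex medians of 4.24% in A, 9.65% in B and 8.23% in C, and hippocampus medians of 4.55%, 9.11% and 7.95%.

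Red cells that burst release hemoglobin, whose heme is toxic when free. Haptoglobin (Hp) binds free hemoglobin and hemopexin (Hpx) binds free heme. The complexes are cleared by the macrophage receptor CD163 (hemoglobin and haptoglobin) and by LRP1 (hemopexin and heme), a large endocytic receptor that neurons and glia also use for many other ligands. Inside cells the heme oxygenases open the heme ring to biliverdin, iron and carbon monoxide. Hmox1 is the form induced by heme and oxidative stress, and Hmox2 the constitutive form that predominates in brain. The biliverdin reductase Blvra turns that biliverdin into bilirubin. Blvrb, the other gene named as a biliverdin reductase, reduces flavins and is abundant in red cells. Sickle red cells are fragile, which makes this pathway of interest in SS mice.

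Hmox1 (ENSMUSG00000005413.9) is transcribed from the plus strand of chromosome 8 at 75820241 to 75827217 in the GRCm39 build, and Hp (ENSMUSG00000031722.11) lies on the minus strand of the same chromosome at 110301759 to 110305804. Hmox2 (ENSMUSG00000004070.16) lies on chromosome 16 at 4544216 to 4589816, plus strand. Of its exonic bases, 75.8% overlap Cdip1 on the opposite strand, so reads there can be assigned to either gene only if the counting used strand. The study describes a directional library preparation, but the sources used here do not give the strand setting of the counting. Blvra (ENSMUSG00000001999.16) is on chromosome 2 at 126912556 to 126939017, plus strand, and Blvrb (ENSMUSG00000040466.17) on chromosome 7 at 27147275 to 27165569, plus strand. Hpx (ENSMUSG00000030895.10) is on chromosome 7 at 105240817 to 105249344, minus strand. Cd163 (ENSMUSG00000008845.10) is on chromosome 6 at 124281606 to 124307560, plus strand, and Lrp1 (ENSMUSG00000040249.16) on chromosome 10 at 127374012 to 127457017, minus strand.

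The heme- and stress-responsive activator NRF2 and its repressor BACH1 act at antioxidant response elements, whose core is TGACNNNGC. Promoter sequence of RefSeq (build GRCm38.p6, from 250 bases before to 50 after each start) was searched on both strands for that core, which 12.4% of all 32851 windows held. Windows were given for 6 of the 8 genes. Hmox1 and Hp had none, so their promoters were not searched. The 6 genes had 9 windows, and the core was in 3 of the 9, each of a different gene. The share of all windows compares with this count of windows, not with the 3 of 6 genes. In each case the core was present as its reverse complement on the gene's own strand. The 3 matches are shown 5′ to 3′ on the gene's strand, with the core in capitals. They allow the promoters to be compared with the levels below, and a match is a description of letters only.
Blvra, chr2:127070598-127070626, plus strand, 49 to 41 bases before the start: cacgggaattGCTCGGTCAaggctccgcc
Hpx, chr7:105600193-105600221, minus strand, 95 to 87 bases before the start: gccaatattgGCATAGTCAtggaagacaa
Lrp1, chr10:127621290-127621318, minus strand, 160 to 152 bases before the start: cagcgcatgcGCACTGTCAggattgccgc
No match was present in the windows of Hmox2, Blvrb and Cd163.

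The intracellular enzymes and Lrp1 were well expressed, and the plasma scavengers Hp and Hpx were close to the limit of detection. Per kilobase of exon, the median cortex level of Lrp1 was 29.1 CPM, followed by Hmox2 at 8.36, Blvra at 4.54, Blvrb at 2.85, Hmox1 at 2.72, Hpx at 0.326, Cd163 at 0.218 and Hp at 0.0981 CPM per kilobase. The order in hippocampus was Lrp1 at 28.1, Hmox2 at 8.98, Blvra at 3.39, Hmox1 at 3.19, Blvrb at 2.59, Cd163 at 0.254, Hpx at 0.253 and Hp at 0.106 CPM per kilobase. Hmox2 and its oppositely transcribed neighbour share much of that length, as above. Across the 66 cortex libraries Hmox1 (1.59 to 4.16), Blvrb (1.51 to 8.25) and Blvra (3.32 to 8.45 CPM per kilobase) overlapped their neighbours in the order, as did Hpx (0.0281 to 0.602), Cd163 (0.0454 to 0.615) and Hp (0 to 0.437). The lowest Lrp1 value, 13 CPM per kilobase, lay below the highest Hmox2 value, 15.6. Hp had no read in 5 cortex and 2 hippocampus libraries and at most 3 reads in 22 and 18. A change of small size in Hp or Hpx was not detectable at this depth.

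**Figure D1:**
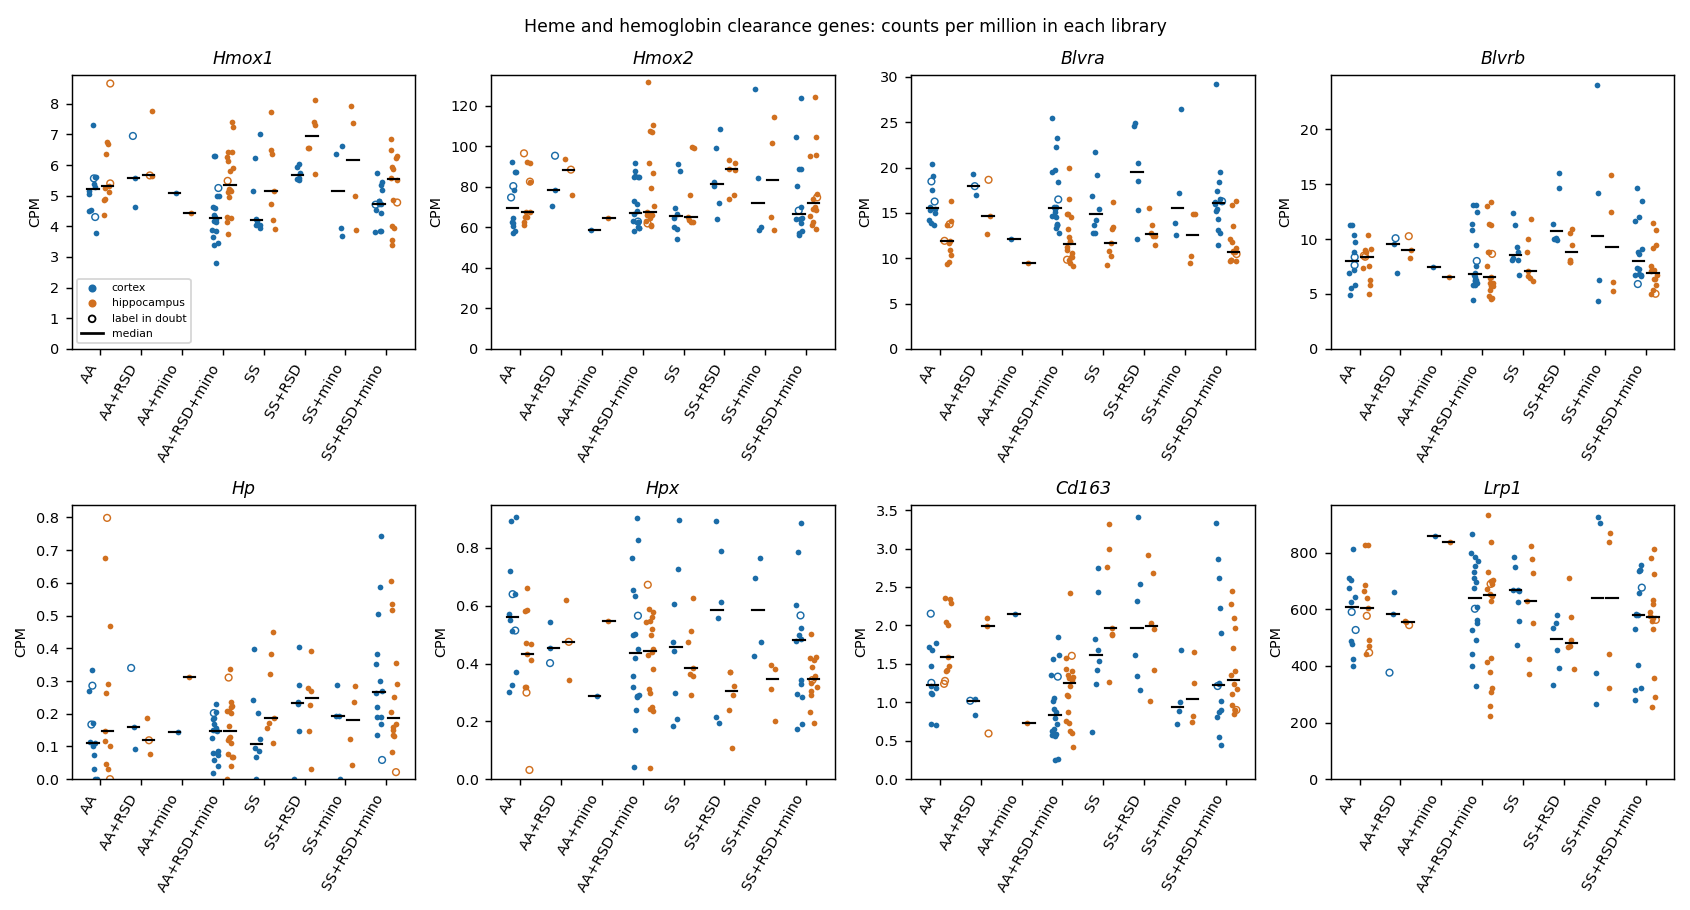
Level of each of the 8 genes (CPM, vertical axis) in every library by group, with cortex in blue, hippocampus in orange, a black line at the group median and open circles for the mice whose labels are in doubt. Most groups overlapped, the medians over all libraries ran from 596 CPM for Lrp1 to 0.167 CPM for Hp in cortex, and the 4 SS+minocycline mice were spread widely for Lrp1, Hmox2 and Blvrb.

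The AA+minocycline group, 1 mouse, is left out of the following ranges of group means. For Hmox1 the means ran from 4.41 ± 0.925 CPM (SD, n = 18) in AA+RSD+minocycline to 5.73 ± 0.218 CPM (SD, n = 6) in SS+RSD cortex, and from 5.24 ± 1.15 CPM (n = 14) in SS+RSD+minocycline to 6.95 ± 0.847 CPM (n = 6) in SS+RSD hippocampus. Hmox2 ran from 69.2 ± 13.4 CPM in SS (n = 8) to 84.4 ± 16.7 CPM in SS+RSD cortex (n = 6), and from 75.5 ± 17 CPM in SS (n = 7) to 86 ± 9.16 CPM in AA+RSD hippocampus (n = 3). These are the groups at the ends of the order, and their ranges overlapped for Hmox2 in both tissues. Without the doubted mice the ends for Hmox2 in hippocampus were AA, 72.7 ± 12.4 CPM (n = 9), and SS+RSD, 85.3 ± 8.19 CPM (n = 6).

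Blvra had its lowest group mean in SS cortex, 15.8 ± 3.21 CPM (n = 8), and its highest in SS+RSD cortex, 19.3 ± 5.07 CPM (n = 6). In hippocampus it ran from 11.6 ± 2.17 CPM in SS+RSD+minocycline (n = 14) to 15.3 ± 3.04 CPM in AA+RSD (n = 3), which was 13.7 ± 1.35 CPM without mouse 9674 (n = 2). Blvrb ran from 8.14 ± 2.8 CPM in AA+RSD+minocycline (n = 18) to 12.2 ± 8.93 CPM in SS+minocycline cortex (n = 4), where 2 mice stood far above the other 2. In hippocampus it ran from 7.37 ± 2.08 CPM (SS+RSD+minocycline, n = 14) to 9.89 ± 5.09 CPM (SS+minocycline, n = 4).

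Among the receptors, Lrp1 had its lowest cortex mean in SS+RSD, 473 ± 98.1 CPM (n = 6), and its highest in SS, 649 ± 98.8 CPM (n = 8). In hippocampus it ran from 516 ± 111 CPM in SS+RSD (n = 6) to 617 ± 278 CPM in SS+minocycline (n = 4), and without the doubted mice the highest was AA, 628 ± 142 CPM (n = 9). Cd163 ran from 0.922 ± 0.46 CPM in AA+RSD+minocycline (n = 18) to 2.06 ± 0.856 CPM in SS+RSD cortex (n = 6), and from 1.12 ± 0.419 CPM in SS+minocycline (n = 4) to 2.3 ± 0.737 CPM in SS hippocampus (n = 7). The scavengers stayed low, with cortex group means of 0.456 to 0.59 CPM for Hpx and 0.13 to 0.311 CPM for Hp.

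The clearest difference in these genes was between the tissues, for Blvra. In untreated mice, with both tissues of a mouse compared, Blvra was lower in hippocampus than in cortex in all 11 AA mice. Its level was 16.1 ± 2.24 CPM in cortex and 12.1 ± 2.14 CPM in hippocampus (SD, n = 11), and the log2 difference was -0.44 ± 0.05 (SE) with an adjusted p of 7.5e-07 (edgeR). In SS mice the means were 15.9 ± 3.46 and 12.1 ± 2.35 CPM (SD, n = 7). Of the 7 SS mice 6 were lower in hippocampus, with a log2 difference of -0.41 ± 0.09 (SE) and an adjusted p of 0.0031 (edgeR). SS mouse 9903 was the exception, at 12.8 CPM in cortex and 13.2 CPM in hippocampus. The ranges of the tissues overlapped within each genotype, and the difference appeared within mice.

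Blvrb was also lower in hippocampus of SS mice, at 8.16 ± 2.14 against 9.46 ± 1.70 CPM (SD, n = 7), with 5 of 7 mice in that direction and a log2 difference of -0.26 ± 0.08 (SE, edgeR adjusted p = 0.030). With no filter on low counts this call was lost, at -0.24 and an edgeR adjusted p of 0.064. In AA mice it was 7.82 ± 1.62 in hippocampus and 7.87 ± 2.06 CPM in cortex (SD, n = 11), a log2 difference of -0.02 with a 95% interval of -0.14 to 0.11. Whether the tissue difference itself differed between AA and SS mice was not tested. These comparisons called 53% of 17556 genes in AA and 41.3% of 17858 genes in SS mice, so calls of 1 of 7 and 2 of 7 genes tested here are no more frequent than over all genes. Hp was not tested, being too low.

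Cd163, the macrophage receptor, was higher in hippocampus in 7 of 11 AA and 6 of 7 SS mice. In AA mice it was 1.77 ± 0.444 in hippocampus and 1.31 ± 0.441 CPM in cortex (SD, n = 11), a log2 difference of 0.42 (interval 0.03 to 0.80, edgeR adjusted p = 0.063). Without AA mice 5844 and 9631 the difference was 0.60 (0.24 to 0.97) and passed, with an edgeR adjusted p of 0.0089 and 49.2% of all genes called. In SS mice it was 2.30 ± 0.737 against 1.84 ± 0.551 CPM (SD, n = 7), a difference of 0.29 (-0.07 to 0.65). Of 8 other markers of border macrophages (Mrc1, Lyve1 and others), 6 were tested in AA mice and 1 was called. The part that cell numbers played was not tested, and in bulk tissue more cells of a type cannot be told apart from more RNA per cell. Hmox1 was higher in hippocampus in 7 of 11 AA and 6 of 7 SS mice, by 0.15 (-0.05 to 0.35) and 0.13 (-0.12 to 0.37) on the log2 scale. Hmox2 was higher in 9 of 11 and 5 of 7 mice, by 0.09 (0.00 to 0.17) and 0.10 (-0.02 to 0.23), and did not pass the test (edgeR adjusted p = 0.075 in AA). Lrp1 differed by -0.02 (-0.14 to 0.10) and -0.13 (-0.41 to 0.16), and Hpx by -0.43 (-0.97 to 0.10) and -0.23 (-0.76 to 0.29).

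**Figure D2:**
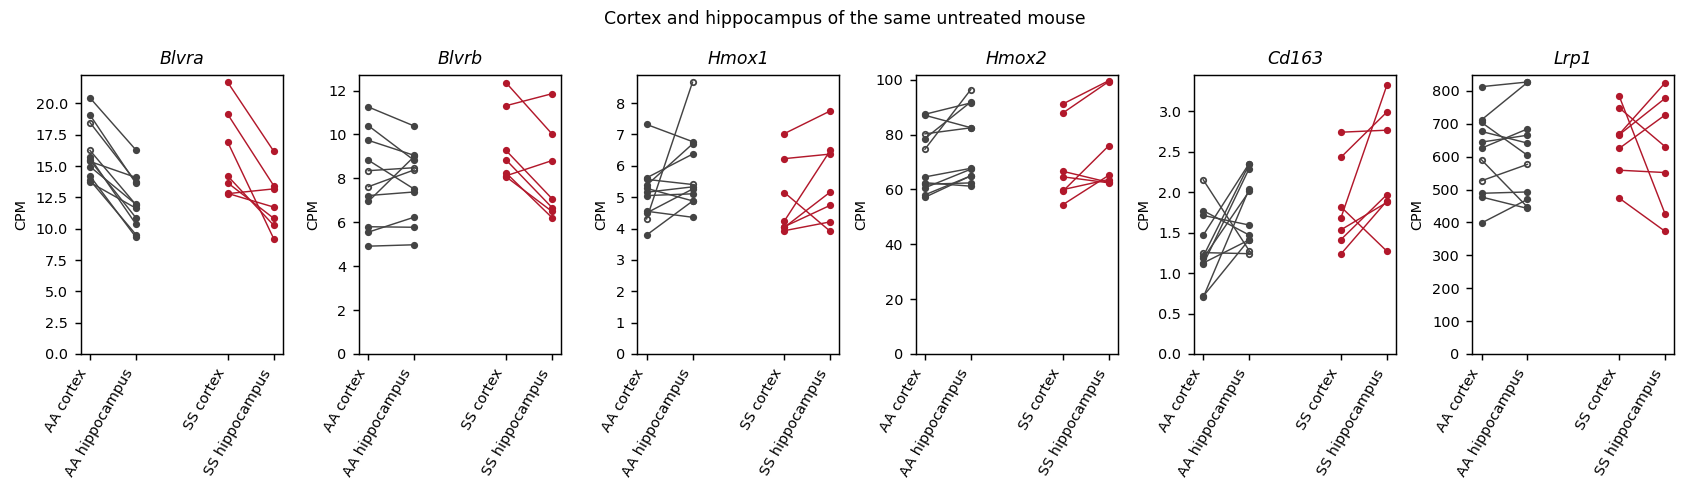
Level (CPM, vertical axis) of Blvra, Blvrb, Hmox1, Hmox2, Cd163 and Lrp1 in cortex and hippocampus of each untreated mouse, joined by a line, with AA and SS mice apart and open circles for doubted mice. The Blvra lines fall in 11 of 11 AA and 6 of 7 SS mice, whereas the Lrp1 lines cross.

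Genotype, stress and treatment gave no call in any of the 8 genes. Over 24 comparisons, 12 in each tissue, 4 of the 24 being interactions, 0 of 192 tests passed an adjusted p of 0.05 with edgeR and 0 with DESeq2 (5 of whose adjusted p-values were not given). At an unadjusted p under 0.05 there were 14, or 7.29% of the tests, where 10.6% of the tests of all genes in these comparisons reached it. Of the 14, Cd163 gave 7 (2 higher and 5 lower), Hmox1 5 (1 higher and 4 lower), Blvrb 1 (lower) and Hp 1 (higher). The smallest adjusted p was 0.0639. The share of all genes called in these comparisons ran from 0% to 8.85% and is given with each.

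**Figure D3:**
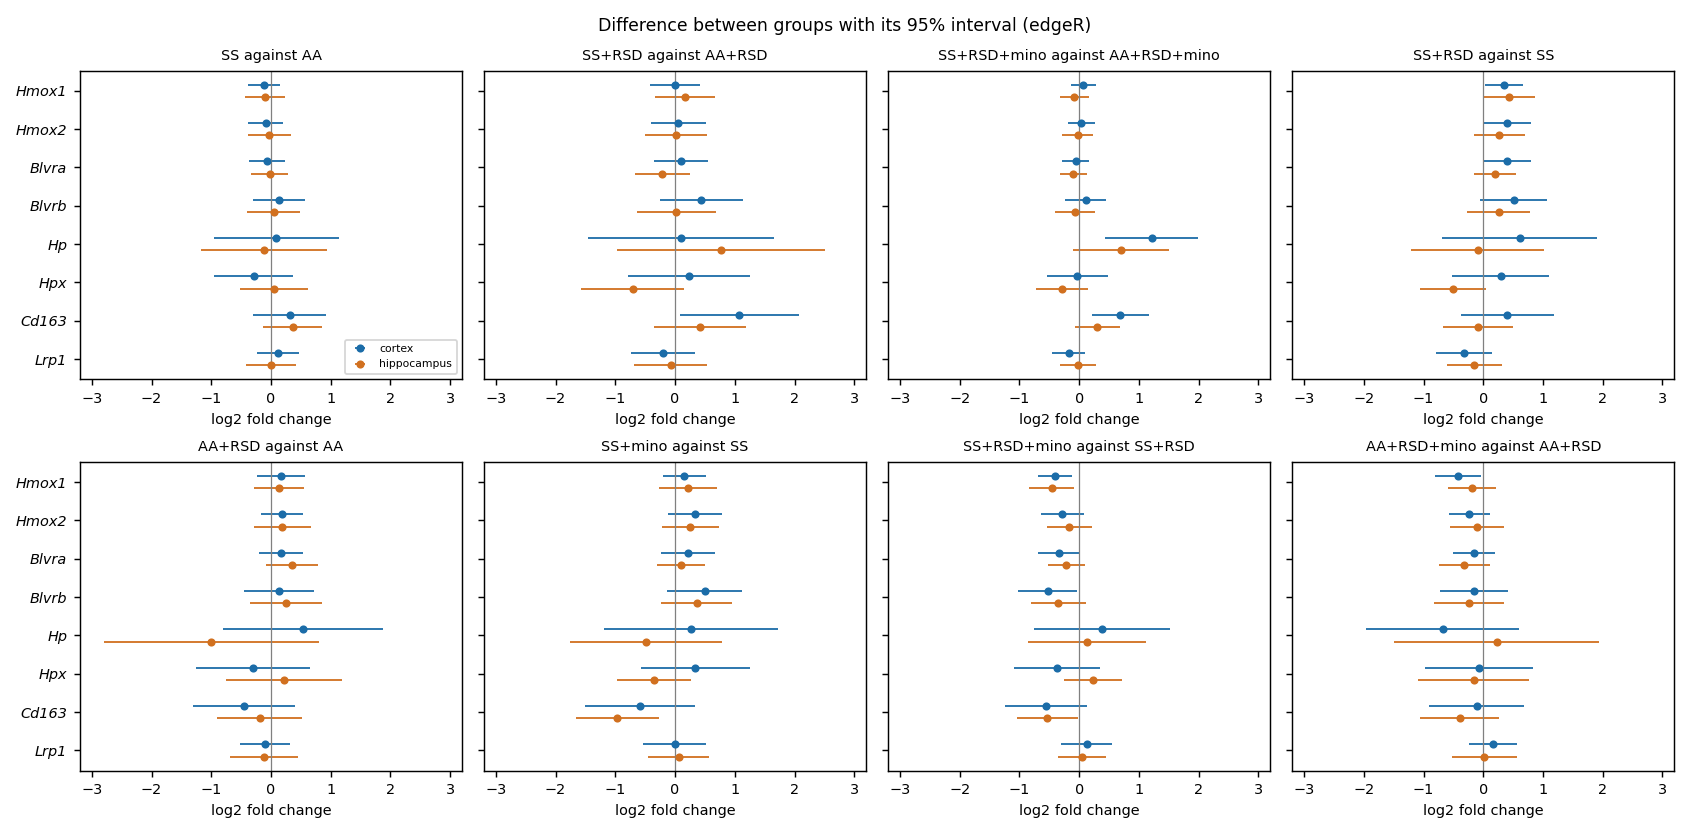
Log2 fold change (horizontal axis) with its 95% interval for each gene in 8 comparisons of genotype, RSD and minocycline, cortex in blue and hippocampus in orange. Intervals were narrow for Hmox2, Blvra and Hmox1 and wide for Hp, Hpx and Cd163, and none of the differences drawn was called.

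The genotype comparison asks whether the genes of heme clearance differ in the brain of mice with sickle hemoglobin. SS against AA called 0.214% of 22926 genes in cortex and 0.159% of 23215 in hippocampus, and none of the 8. Of the red cell precursor markers, 6 of 7 tested in cortex and 6 of 8 in hippocampus were called in this comparison. Hmox1 in cortex had a lowest, median and highest value of 3.79, 5.22 and 7.32 CPM in AA and of 3.93, 4.21 and 7.03 CPM in SS mice. In hippocampus these were 4.36, 5.33 and 8.66 CPM in AA and 3.91, 5.16 and 7.75 CPM in SS mice. The genotypes overlapped nearly throughout, and the log2 difference was -0.12 (-0.39 to 0.15) in cortex and -0.10 (-0.43 to 0.24) in hippocampus. The cortex value depended on the number series, with 0.31 (-0.06 to 0.67) within series A (2 SS and 4 AA mice) and -0.32 (-0.64 to -0.01, edgeR adjusted p = 0.57) within series B (6 SS and 8 AA mice). In hippocampus the values within A and B were -0.09 (-0.52 to 0.34) and -0.13 (-0.47 to 0.22).

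Hmox2 differed between SS and AA mice by -0.09 (-0.38 to 0.20) in cortex and -0.03 (-0.38 to 0.33) in hippocampus. The reductases gave -0.07 (-0.36 to 0.23) and -0.02 (-0.33 to 0.29) for Blvra, and 0.13 (-0.31 to 0.58) and 0.04 (-0.41 to 0.49) for Blvrb. Lrp1 differed by 0.12 (-0.23 to 0.46) and -0.00 (-0.42 to 0.42). Hpx gave 0.32 (-0.82 to 1.46) in cortex and 0.64 (-0.45 to 1.74) in hippocampus within series A. Within series B it gave -0.62 (-1.43 to 0.19) and -0.20 (-0.93 to 0.54). Hp gave 0.63 (-1.36 to 2.62) and -0.54 (-2.04 to 0.95) within A. Within B it gave -0.30 (-1.54 to 0.95) and 0.41 (-0.77 to 1.60). Both genes thus changed sign between the series in each tissue.

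Over the mice of both series, Cd163 had the largest positive values of the 8 genes in SS against AA. In cortex its lowest, median and highest values were 0.700, 1.23 and 2.15 CPM in AA and 0.614, 1.61 and 2.74 CPM in SS mice. In hippocampus they were 1.24, 1.59 and 2.35 CPM in AA and 1.27, 1.97 and 3.32 CPM in SS mice. The groups overlapped, with log2 differences of 0.31 (-0.30 to 0.92) and 0.36 (-0.14 to 0.86). After RSD alone, cortex Cd163 was 0.832, 1.02 and 1.05 CPM in the 3 AA+RSD mice and 1.16 to 3.41 CPM in the 6 SS+RSD mice. The difference of 1.08 (0.08 to 2.08) had an edgeR adjusted p of 0.92, with 0.493% of all genes called, and without the doubted mice it was 1.15 (-0.06 to 2.37). In hippocampus the AA+RSD mice were at 0.594, 1.99 and 2.10 CPM and the SS+RSD mice at 1.02 to 2.92 CPM, a difference of 0.42 (-0.35 to 1.18) and of 0.04 (-0.80 to 0.87) without the doubted mice. There 0.780% of all genes were called.

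With RSD and minocycline together, cortex Cd163 ran from 0.252 to 1.84 CPM with a median of 0.830 in AA mice, and from 0.440 to 3.34 CPM with a median of 1.23 in SS mice. The difference was 0.69 (0.21 to 1.16), edgeR adjusted p = 0.28, and 0.65 (0.16 to 1.14) within number series B. In hippocampus it was 0.31 (-0.07 to 0.68). These comparisons called 0.624% of genes in cortex and 2.74% in hippocampus. The 8 border macrophage markers summed to 23.8 CPM (median; 16.6 to 29.8) in cortex of AA and 32.6 CPM (24.1 to 38.1) in SS mice, and to 23.4 CPM (15.4 to 26) and 25.1 CPM (16.6 to 37.5) in the 2 groups with RSD and minocycline, with none of the 8 called. Their part in the Cd163 values was not tested.

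Hp in SS+RSD+minocycline against AA+RSD+minocycline cortex had a log2 difference of 1.21 (0.44 to 1.99) and did not pass the test (edgeR adjusted p = 0.20). Its lowest, median and highest values were 0.0586, 0.265 and 0.744 CPM in SS and 0.0188, 0.149 and 0.229 CPM in AA mice, which is 3 to 27 and 1 to 13 reads. Hp is also a product of maturing neutrophils. The sum of 7 neutrophil markers had a median of 1.2 CPM (0.20 to 5.17) in those SS and 0.34 CPM (0.13 to 1.64) in those AA libraries, and 2 of 6 tested were called in cortex. Whether these cells carried the Hp reads was not tested. In hippocampus the Hp difference was 0.69 (-0.11 to 1.5), with 3 of 5 neutrophil markers called.

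RSD was compared with no stress to ask whether social stress moved the pathway. SS+RSD against SS called 2.57% of 19906 genes in cortex and 3.11% of 20701 in hippocampus, and none of the 8. Cortex Hmox1 lay between 5.53 and 6.04 CPM in all 6 SS+RSD mice, with a median of 5.67, inside the range of the 8 SS mice. The log2 difference was 0.35 (0.03 to 0.67), edgeR adjusted p = 0.15. The other intracellular genes leaned the same way without passing, with Hmox2 at 0.40 (-0.01 to 0.80), Blvra at 0.40 (-0.00 to 0.80) and Blvrb at 0.51 (-0.05 to 1.07), while Lrp1 was at -0.33 (-0.80 to 0.14). In hippocampus Hmox1 had 3.91, 5.16 and 7.75 CPM as lowest, median and highest values in SS and 5.70, 6.95 and 8.13 CPM in SS+RSD mice, a difference of 0.43 (-0.00 to 0.86).

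These differences were smaller or had the other sign among mice of one number series. With series as a term the cortex difference of Hmox1 was -0.18 (-0.56 to 0.20) and the hippocampus difference -0.00 (-0.56 to 0.55). Within series A, with 6 SS+RSD and 2 SS mice, the cortex values were -0.19 (-0.48 to 0.10) for Hmox1, -0.06 (-0.52 to 0.40) for Hmox2, -0.06 (-0.68 to 0.57) for Blvra, 0.04 (-0.47 to 0.56) for Blvrb and -0.11 (-0.53 to 0.31) for Lrp1. The 2 SS mice of series A had 6.23 and 7.03 CPM of Hmox1 in cortex and the 6 of series B had 3.93 to 5.15 CPM. A fit of the SS+RSD and SS groups alone, over both series and with their own estimate of spread, called Blvrb (0.47) and Lrp1 (-0.38) in cortex, where 19.2% of all genes were called.

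AA+RSD against AA called 0.853% of 21927 genes in cortex and 1.19% of 21563 in hippocampus, and none of the 8. The 3 AA+RSD mice had Hmox1 levels of 5.56, 4.64 and 6.95 CPM in cortex and 5.64, 7.77 and 5.66 CPM in hippocampus, inside the AA ranges given above. The highest AA value in hippocampus belongs to doubted mouse 9631, and without the doubted AA mice the highest was 6.77 CPM, below the AA+RSD mouse at 7.77 CPM. The differences were 0.17 (-0.24 to 0.57) and 0.13 (-0.29 to 0.55). Hmox2 differed by 0.19 (-0.17 to 0.54) and 0.19 (-0.28 to 0.66), and Cd163 by -0.45 (-1.30 to 0.40) and -0.19 (-0.90 to 0.53). Leaving out 1 AA+RSD mouse at a time gave cortex values of -0.01 to 0.30 for Hmox1 and 0.04 to 0.29 for Hmox2. In hippocampus it gave -0.01 to 0.23 for Hmox1, 0.14 to 0.29 for Hmox2 and -0.43 to 0.20 for Cd163. Within series A, cortex and hippocampus values were 0.14 and -0.22 for Hmox1, -0.03 and -0.14 for Hmox2 and -0.44 and -0.06 for Cd163. The test of whether RSD acted differently in SS and AA mice gave 0.11 (-0.38 to 0.61) for cortex Hmox1, 0.26 (-0.34 to 0.87) for hippocampus Hmox1 and 0.77 (-0.39 to 1.92) for cortex Cd163. Within series A, which holds all mice with RSD alone, the cortex value of Hmox1 had the other sign, -0.31 (-0.78 to 0.17), and the hippocampus value was 0.27 (-0.28 to 0.82). The interaction over all mice called 0.236% of genes in cortex and 0.0474% in hippocampus. With 3 AA+RSD mice these intervals were wide.

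Minocycline during RSD was compared with RSD alone to ask whether the drug altered the response. SS+RSD+minocycline against SS+RSD called 8.85% of genes in cortex and 5.96% in hippocampus, and none of the 8. Cortex Hmox1 with minocycline was at 3.82, 4.73 and 5.74 CPM (lowest, median and highest of 14 mice) against 5.53 to 6.04 CPM without. The difference was -0.40 (-0.68 to -0.12), edgeR adjusted p = 0.064, the smallest in the genotype, stress and treatment comparisons. The 2 groups fitted alone gave the same -0.40 and an edgeR adjusted p of 0.019, where 10.3% of genes were called. In hippocampus the values were 3.39, 5.55 and 6.86 CPM against 5.70, 6.95 and 8.13 CPM, and the difference was -0.46 (-0.83 to -0.08), edgeR adjusted p = 0.11. With number series as a term, both differences turned to 0.40 in cortex and 0.26 in hippocampus. Blvrb in cortex went from -0.53 (-1.03 to -0.03) to 0.22. The 2 groups have no series in common, so these values rest on the untreated and the SS+minocycline mice.

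AA+RSD+minocycline against AA+RSD called 3.60% of genes in cortex and 2.67% in hippocampus, and none of the 8. Hmox1 differed by -0.43 (-0.81 to -0.04) in cortex and by -0.19 (-0.59 to 0.21) in hippocampus. Without the doubted mice the cortex difference was -0.26 (-0.74 to 0.22). Compared with unstressed AA mice, AA+RSD+minocycline mice called 0.0319% of genes in cortex and 0% in hippocampus. SS+RSD+minocycline against SS called 0% in both tissues, and the interaction of genotype with RSD plus minocycline called 0% in both tissues.

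Cd163 had negative log2 differences in hippocampus in each comparison of minocycline-treated with untreated unstressed mice, and none passed the test. Those of mice given RSD and minocycline differ in both RSD and drug. In hippocampus of the 4 SS+minocycline mice it was 0.822, 0.744, 1.25 and 1.65 CPM, against 1.27, 1.97 and 3.32 CPM as lowest, median and highest of 7 SS mice. The log2 difference was -0.96 (-1.66 to -0.27), with an edgeR adjusted p of 0.98 in a comparison that called 0% of genes. With series as a term it was -0.53 (-1.23 to 0.17). SS+RSD+minocycline against SS gave -0.63 (-1.11 to -0.15), and AA+RSD+minocycline against AA -0.58 (-0.99 to -0.18). Within series B these were -0.50 (-1.02 to 0.02) and -0.60 (-1.05 to -0.16). The comparisons share their untreated mice. In cortex the values were -0.59 (-1.51 to 0.33), -0.15 (-0.79 to 0.49) and -0.56 (-1.03 to -0.09), the last being -0.50 (-1.02 to 0.02) without doubted mice. Within series B the cortex values were -0.10 (-1.31 to 1.10), 0.05 (-0.67 to 0.77) and -0.41 (-0.90 to 0.08), so the second had the other sign. With RSD in both groups, 1 mouse without drug was left out at a time. SS+RSD+minocycline against SS+RSD then gave Cd163 differences of -0.66 to -0.42 in hippocampus and -0.63 to -0.35 in cortex. AA+RSD+minocycline against AA+RSD gave -0.78 to -0.15 and -0.21 to -0.05. None was called, and these groups share no number series. Summed border macrophage markers in hippocampus had medians of 36.4 CPM (25.2 to 46.3) in SS, 27.8 CPM (24 to 29.6) in SS+minocycline and 26.8 CPM (18.5 to 34.6) in SS+RSD+minocycline mice, and of 27.7 CPM (22.9 to 32) in AA and 26.6 CPM (10.8 to 38.5) in AA+RSD+minocycline mice. None of the 8 markers was called in hippocampus in the comparisons with unstressed mice. In SS+RSD+minocycline against SS+RSD, 1 of the 8 was called in hippocampus. Their part in the Cd163 values was not tested.

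The SS+minocycline group held 2 kinds of values. In cortex, mice 9888 and 9889 (series B) had Blvrb levels of 14.2 and 24 CPM, and mice 7108 and 7121 (series C) had 4.40 and 6.26 CPM. Hmox2 was 84.0 and 128 CPM in the former and 60.04 and 58.8 CPM in the latter. Lrp1 went the other way, with 373 and 267 CPM against 925 and 905 CPM. The same split stood in hippocampus, where Lrp1 was 440 and 320 CPM against 836 and 870 CPM. Over all 4 mice the comparison with SS called 0% of genes in both tissues and gave 0.50 (-0.13 to 1.13) for cortex Blvrb. Between the 2 mice and the 6 SS mice of series B alone, 5 of the 8 genes were called in cortex, where 27.1% of all genes were: Blvra (0.78), Blvrb (1.39), Hmox1 (0.77) and Hmox2 (0.94) were higher and Lrp1 (-0.96) lower. In hippocampus the same restriction called 0 of the 8 and 0% of all genes. The smallest edgeR adjusted p-values there were those of Blvrb (1.12, 0.53 to 1.71, adjusted p = 0.070), Hmox2 (0.83, 0.29 to 1.36, adjusted p = 0.071) and Hmox1 (0.76, 0.17 to 1.35, adjusted p = 0.088).

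The number series were also compared. Among untreated mice, with genotype as a term, series B against A called 40.3% of 19710 genes in cortex and 40.8% of 21210 in hippocampus, and 3 and 6 of the 8 genes. In cortex that count is no more than the share over all genes. Hmox2 was lower in series B by 0.47 in cortex (log2 difference -0.47 ± 0.09 SE, edgeR adjusted p = 0.00057) and had a difference of -0.61 ± 0.08 in hippocampus (edgeR adjusted p = 8.3e-05). In hippocampus the 5 mice of series A had 91.5 to 99.6 CPM of Hmox2 and the 13 of series B 61.2 to 82.5 CPM. Hmox1 in hippocampus was 6.37 to 8.66 CPM in A and 3.91 to 6.77 CPM in B, a difference of -0.61 ± 0.12 (SE). Blvra differed by -0.38 in cortex and -0.45 in hippocampus, Blvrb by -0.36 and -0.45 and Hp by -1.20 and -1.82, of which the cortex values of Blvrb and Hp were not called. Lrp1 was higher in series B by 0.30 in cortex and 0.42 in hippocampus, both called. Cd163 differed by -0.17 (-0.67 to 0.34) and 0.01 (-0.44 to 0.45). Without the doubted mice, cortex Hmox1 and Blvrb were called too, which makes 5 of 8. The share of all genes called without those mice is not given here, so this count has no comparison. Among the markers, 2 of 2 tested for neutrophils, 3 of 6 for microglia and 2 of 8 for border macrophages were called in cortex.

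**Figure D4:**
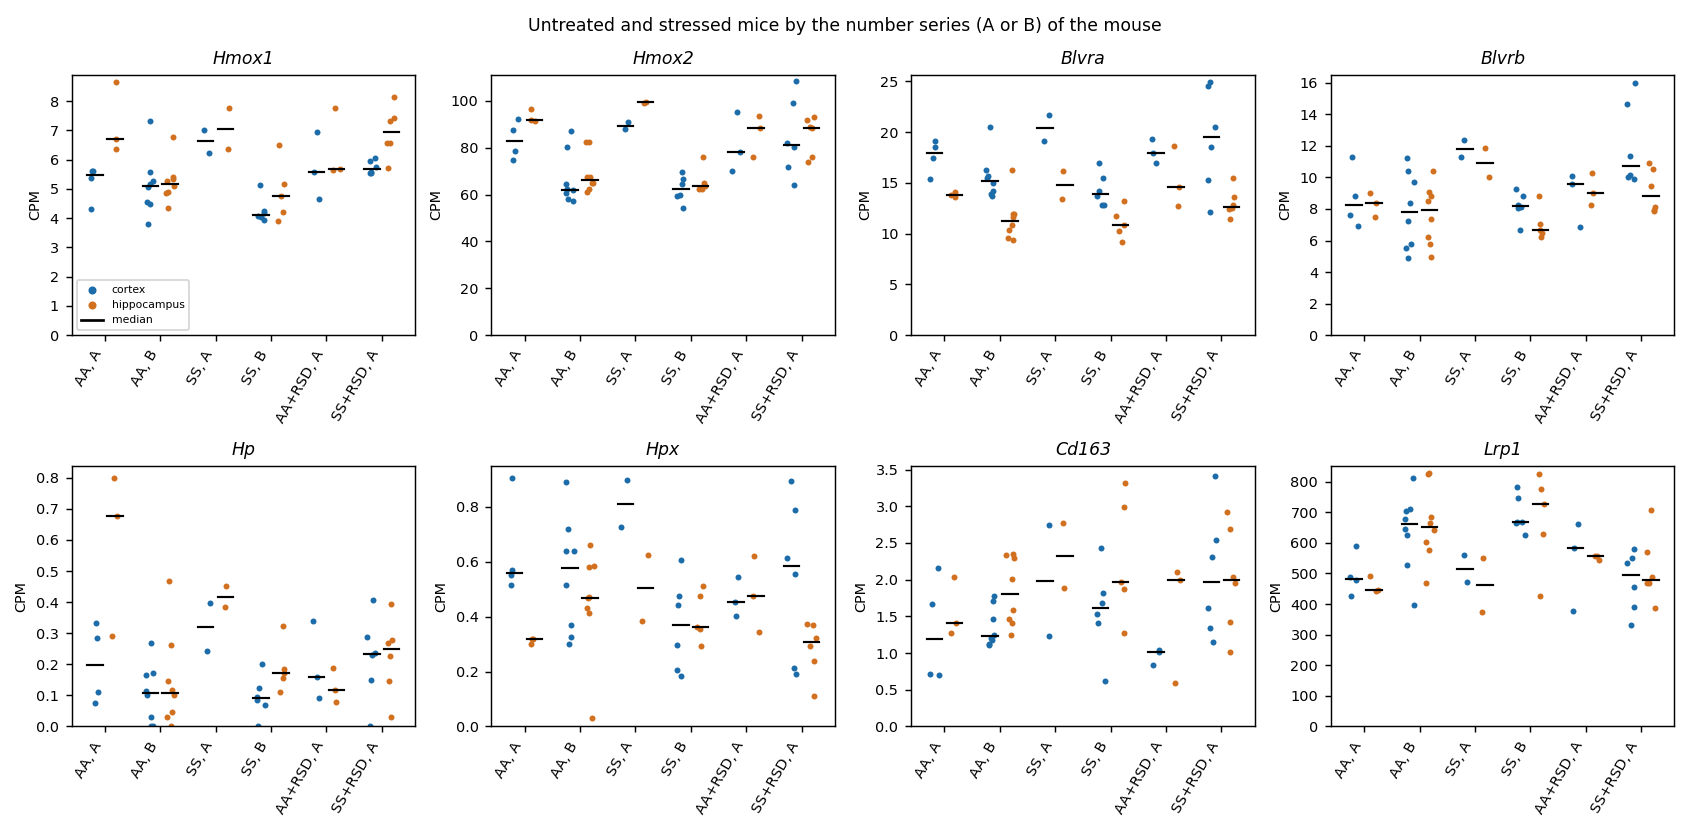
Level (CPM, vertical axis) of the genes in untreated AA and SS mice by number series (A or B), with AA+RSD and SS+RSD mice, all of series A, at the right. Hippocampus Hmox2 of untreated mice is 91.5 to 99.6 CPM in A and 61.2 to 82.5 CPM in B.

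Within groups, the levels of the 4 enzymes and of Lrp1 were related from mouse to mouse. Deviations of log2 CPM from the group mean were compared over 65 cortex and 63 hippocampus libraries. Hmox2 correlated with Blvra (r = 0.84 in cortex and 0.92 in hippocampus), with Blvrb (0.78 and 0.85) and with Hmox1 (0.62 and 0.85). It ran opposite to Lrp1 (-0.85 and -0.84) and had little relation to Cd163 (-0.06 and -0.11) or Hp (0.21 and 0.15). The points share tissue handling, number series and depth, and these values are a description.

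Among 13081 genes, those whose deviations were most like those of Hmox2, by the smaller of the r values in the tissues, were the glycolytic enzyme gene Tpi1 (0.98) and the proteasome subunit genes Psmc1 and Psmc3 (0.97 each). For Blvra they were Scg5 (0.93) and the mitochondrial and cytosolic enzyme genes Fh1 and Mdh1 (0.92 each). Blvrb was most like Gpx1, a glutathione peroxidase gene, Aurkaip1 and Cystm1 (0.86 each), and Hmox1 like Adipor1 (0.78), Degs1 (0.78) and Rpa2 (0.77). Lrp1 was most like the genes of large proteins Hectd4 (0.96) and Ubr4 (0.95). Cd163 was most like Cp, the ferroxidase ceruloplasmin (0.75), Cyp1b1 (0.74) and Slc6a20a (0.70). The low genes had no close partner, with Cd24a at 0.47 for Hp and Shisa4 at 0.42 for Hpx.

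**Figure D5:**
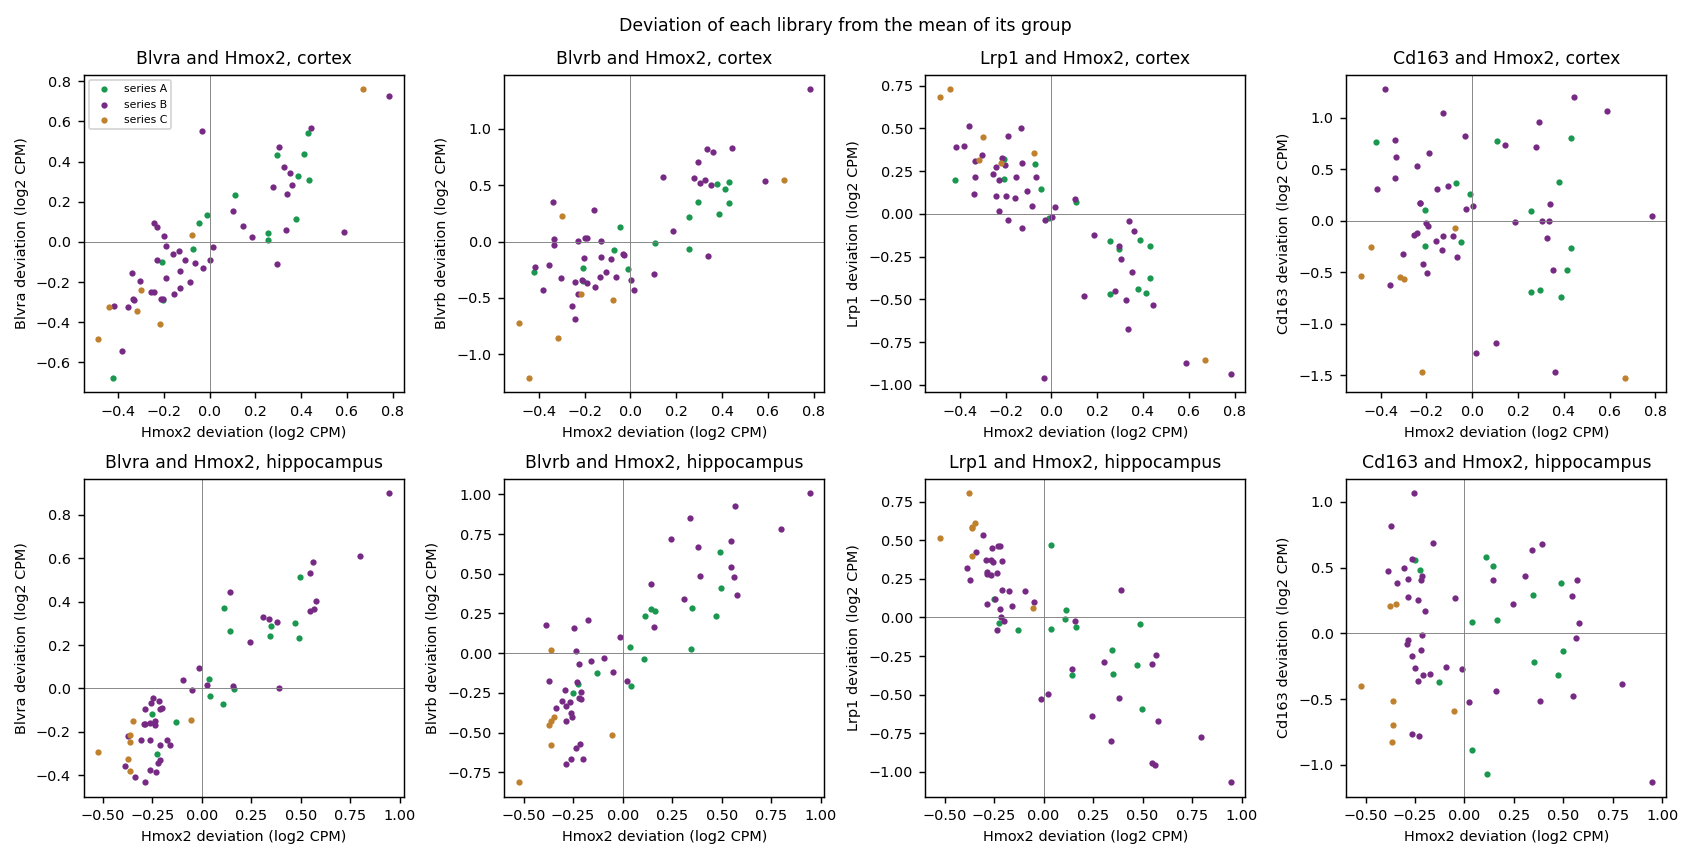
Deviation of Hmox2 from its group mean (log2 CPM, horizontal axis) against that of Blvra, Blvrb, Lrp1 and Cd163 (vertical axis), 1 point per library coloured by number series, cortex above and hippocampus below. Blvra and Blvrb rise with Hmox2, Lrp1 falls with it (r = -0.85 and -0.84), and Cd163 shows little relation.

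A further 25 genes of heme handling were examined as a list, among them heme carriers and transporters, ferritins and the NRF2 pathway, and 23 were tested. In SS against AA 0 of 23 were called in either tissue by edgeR, and the list's median log2 difference was 0.01 in cortex and 0.02 in hippocampus, beside -0.00 and 0.01 for all genes. In SS+RSD against SS 0 were called, with medians of 0.18 and 0.09 beside 0.08 and 0.06 for all genes. Over the processing alternatives that comparison called up to 4 of the list in cortex and up to 2 in hippocampus, and SS+minocycline against SS up to 8 in cortex. Fitting only the groups compared, SS+RSD against SS called 19.2% of all genes in cortex. Within series B, SS+minocycline against SS called 27.1% in cortex. Which alternative gave each largest count is not given here, so these counts are not read as particular to the list. SS+RSD+minocycline against SS+RSD called 2 of the 23 higher in cortex, a share close to the 8.85% of all genes: Abcb6, a porphyrin transporter (1.51, edgeR adjusted p = 0.012), and Flvcr1, a heme exporter (0.62, edgeR adjusted p = 0.0497). In hippocampus, where 5.96% of all genes were called, it called 1, Nqo1, a quinone reductase induced by NRF2, lower (-0.80, edgeR adjusted p = 0.026). With number series as a term these were -0.00, -0.16 and -0.08. In AA mice, AA+RSD against AA called Lrp2 lower in hippocampus (-1.15, edgeR adjusted p = 0.038) and AA+RSD+minocycline against AA+RSD called Txnrd1 higher there (0.22, edgeR adjusted p = 0.031). Without the doubted mice Lrp2 was at -0.74 and neither passed.

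Between the tissues, 12 of the 23 were higher and 3 lower in hippocampus of AA mice, and 6 higher and 2 lower in SS mice, where 53% and 41.3% of all genes were called. Lrp2, the megalin receptor that is abundant in choroid plexus, was higher by 2.92 in AA and 3.23 in SS mice on the log2 scale. The flavoprotein Por, which feeds electrons to heme oxygenase, was higher by 0.33 in both. The lysosomal heme transporter gene Slc48a1 was lower, at -0.26 and -0.25. Between the number series, B against A called 3 higher and 11 lower in cortex and 4 higher and 9 lower in hippocampus, where 40.3% and 40.8% of all genes were called, with the ferritin genes Fth1 (-0.52 and -0.84) and Ftl1 (-0.83 and -0.97) among the lower ones.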

How the data were processed

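Bulk polyA RNA-seq was measured in cortex and hippocampus of male Townes mice. Per the study's methods, the authors aligned reads with STAR to GRCm39 and deposited unnormalized counts per GENCODE gene, 1 table per tissue, each ending in STAR's rows for unmapped and unassigned reads. The GENCODE release and the strand setting of the counting are not given in the sources used here. Those rows were left out of library sizes. Their medians were 12.6% unmapped, 4.96% multimapping and 8.37% outside genes in cortex. Columns named for no sample given here (3 of both tables) were not used, and 1 hippocampus sample without a complete label was not assigned.

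From the deposited counts, CPM was computed on all reads on genes. Differences were tested with edgeR 4.0.16 in R 4.3.3 (TMM, filterByExpr with a minimum count of 10 and a total of 15, quasi-likelihood F test, Benjamini-Hochberg over all genes tested, adjusted p under 0.05). Intervals are 95% t intervals of the log2 difference. Comparisons within a genotype used a model of that genotype's groups in 1 tissue, and comparisons between genotypes and interactions a model of all groups. Tissues were paired by mouse, the same animal having given both libraries. Exon lengths and positions came from GENCODE vM39. Scripts were tested on simulated counts.

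Alternatives were DESeq2 1.42.0, its size factors, no filter, only the groups compared, number series as a term or within A or B, the share of reads outside genes as a term, no pairing by mouse, leaving out the doubted mice, and leaving out each mouse of groups of 3 to 5. Leaving out each SS+RSD mouse was chosen after seeing the data. The genes, lists and tests were chosen with earlier results of these data known. Named genes were the 8 genes, the 3 most like each by the smaller within-group correlation, and called genes of the heme list. A gene that this rule names is not reported here.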

Additional observations from a re-analysis of the deposited data

Results flagged for a closer look

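The single AA+minocycline mouse (10639) entered no comparison. The Lrp1 level of mouse 10639 was 860 CPM in cortex and 839 CPM in hippocampus. These were above each of the 12 AA cortex libraries (highest 813 CPM) and the 11 AA hippocampus libraries (highest 827 CPM). Other groups reached such levels, with highest values of 865 and 933 CPM in AA+RSD+minocycline and of 925 and 870 CPM in SS+minocycline mice (cortex and hippocampus). With 1 mouse the difference from AA was not tested. The 8 genes in the groups of 4 to 10 libraries gave 48 sets of values, each of 1 gene in 1 group and tissue. In none of these sets did a single library lie beyond Dixon's limit, where chance would give about 1 in 20.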

How the results depend on the processing

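Of 28 comparisons, 22 kept their count of called genes within 1.5 times under every alternative run. Fitting only the groups compared gave 2 calls in SS+RSD against SS (cortex; Blvrb and Lrp1) and 1 in SS+RSD+minocycline against SS+RSD (cortex; Hmox1), where all groups of the genotype gave 0. Number series B alone gave 5 in SS+minocycline against SS (cortex), from 2 treated mice. Leaving out the doubted mice gave 5 in series B against A (cortex), where all mice gave 3, and 2 between the tissues of AA mice (Blvra and Cd163), where all gave 1. No filter on low counts gave 2 in AA and 1 in SS mice between the tissues. Shares of all genes called are not given here for these fits without a filter. They are also not given for the series comparison without the doubted mice. Without the replicate block, that is, without pairing by mouse, SS mice gave 0 calls between the tissues, with Blvra at -0.41 (edgeR adjusted p = 0.068) and Blvrb at -0.24 (0.38), and AA mice gave 1, Blvra. Leaving out 1 mouse at a time gave 0 calls in each comparison so tried, with 0 as lowest and highest count. Hmox1 changed sign with number series as a term in SS+RSD against SS (cortex, -0.18, and -0.19 within series A) and in SS+RSD+minocycline against SS+RSD (0.40 in cortex and 0.26 in hippocampus), as did cortex Blvrb in the latter (0.22). Among differences with an unadjusted p of 0.05 or more, 236 of 2044 values had the other sign under an alternative. The cause was not tested. Depth limited Hp and Hpx, and 3 AA+RSD mice limited every comparison with that group.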
